A study of Mus musculus with 36 samples.

Results

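Brush-border peptidases are the enzymes that stand on the microvilli of intestinal absorptive cells and cut peptides into amino acids and short peptides that can be taken up. The 7 genes, chosen by name, were Anpep, Enpep, Ace, Dpp4, Mep1a, Mep1b and Ggt1, and every probe set annotated to one of them on array sets A, B and C was taken. This gave 10 probe sets of 36701 tested, and all 10 lay on array set A. They stood for 6 of the 7 genes, since none of the annotated probe sets carried the symbol Ggt1. Enpep and Mep1b had 2 probe sets each and Ace had 3. A gene is represented below by its brightest probe set, a choice that uses the measured values, and the other probe sets are described beside it.

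The tissue came from male mice of the outbred stock Hsd:ICR(CD-1), aged 8 weeks, fed standard chow and given no treatment that the labels name. Total RNA of whole gut segments was pooled from 10 mice a pool, with 3 pools each of duodenum (the first 2 to 3 cm of the small intestine), jejunum (from its middle), ileum (the end that meets the caecum and colon) and undivided colon, which makes 12 samples. Each sample was hybridised to the 3 array sets, 36 arrays in all, and 36701 probe sets for 15964 named genes were read. Values are linear intensities that the authors had scaled. Each array's mean without the lowest 2% and the highest 2% of its values was 200 to 200.2. The array medians on set A, the measure of depth used here, were 48.6 to 75.3. Pools of different segments carry the same numbers 1 to 3, but the labels do not say that they came from the same mice. The p-values therefore measure the spread between pools.

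Protein digestion ends at the brush border. Aminopeptidases there remove single residues from the N-terminal end of a peptide, dipeptidyl peptidases remove pairs of residues from one end, and meprins and other endopeptidases cut inside the chain. Carriers in the same membrane then take up free amino acids and small peptides, and cytosolic peptidases finish the work inside the cell. Several of these enzymes also act on hormones, among them angiotensins (Ace, Enpep) and the gut hormones of the incretin family (Dpp4).

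Duodenum, ileum and colon carried markers of their labels, though not every listed colon gene did so. By the limma contrasts described below, all 4 listed duodenal genes were lower in the jejunum than in the duodenum. All 5 ileal genes were higher in the ileum than in the jejunum. Of 6 colon genes, 3 were higher in the colon than in the small intestine. Slc26a3 had its lowest mean there (9.73, against 27.2 to 50.5), and Slc26a3, Hoxd10 and Hoxd13 did not differ over the segments. All Slc26a3 means lay under the array medians of its array set, C (85.9 to 104.9). Fabp6, the ileal bile acid binding protein, averaged 10664 in the ileum and 31.3 to 116 elsewhere, Car1, a carbonic anhydrase of the large bowel, 14650 in the colon and 19.3 to 43.7 elsewhere, and S100g, a calcium-binding protein of the upper gut, 2659 in the duodenum and 11.5 to 38 elsewhere. The summed intensity of 7 epithelial genes was 26252.5 to 27657.8 in the duodenum, 29077.7 to 37292 in the jejunum, 38007.6 to 42278.6 in the ileum and 33210.7 to 40745.3 in the colon. The duodenal pools also carried pancreatic enzyme transcripts (5 genes, sum 76496.8 to 77650.1, against 307.9 to 1554.8 in the other segments), and the colon pools more smooth muscle transcripts (8 genes, 25203.9 to 29194.2, against 4757.1 to 10818.8). The 18S control signal fell into a low class, jejunum 2 and 3 and ileum 1 and 3, and a high class with the 8 other samples. The part of these differences in the results below was not tested, apart from the values given without the low class. In whole tissue, fewer cells of a type and less RNA per cell cannot be told apart.

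Anpep, Enpep, Ace and Mep1b were lower in the colon than in each small-intestinal segment. Along the small intestine Ace was highest in the jejunum. Mep1a was highest in the ileum, with the colon next by its mean, though its rise from jejunum to ileum was lost under some alternatives. Anpep was level between jejunum and ileum, and Enpep and Mep1b had their highest mean in the ileum. For Anpep, Enpep and Mep1b the limma contrast of ileum and jejunum did not pass (adjusted p = 0.914, 0.266 and 0.704). Dpp4 passed no test. Over all 4 segments 5 of 6 genes differed (limma F-test on log2 of intensity plus 16, with Benjamini-Hochberg adjustment and a threshold of 0.05), where 8.82% of all probe sets did. The limma contrasts below use the same threshold and are 2-sided, and a difference is a log2 difference of intensity plus 16, which understates the change of dim genes.

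In jejunum minus duodenum, 2 of 6 genes were higher and none lower, where 0.343% of all probe sets were called higher and 0.58% lower. In ileum minus jejunum 1 was higher and 1 lower (1.61% and 1.17% of all). In ileum minus duodenum 4 were higher and none lower (0.858% and 0.97%). In colon minus ileum 4 were lower and none higher (1.72% lower, 1.55% higher), in colon minus jejunum again 4 lower and none higher (3.38% and 5.81%), and in colon minus duodenum 4 lower and 1 higher (2.65% and 3.34%). Set against the average small-intestinal level, 4 were lower in the colon and none higher (3.13% and 4.44%). The median difference of the 6 genes in that comparison was -2.66, against 0.04 over all probe sets. From duodenum to jejunum their median difference was 0.78, against -0.06 over all probe sets. The number of probe sets called rests in part on single pools: in jejunum minus duodenum 339 were called in all, 854 without jejunum 1 and 184 without jejunum 3, and in ileum minus jejunum 1020 in all and 384 without ileum 3.

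**Figure D1:**
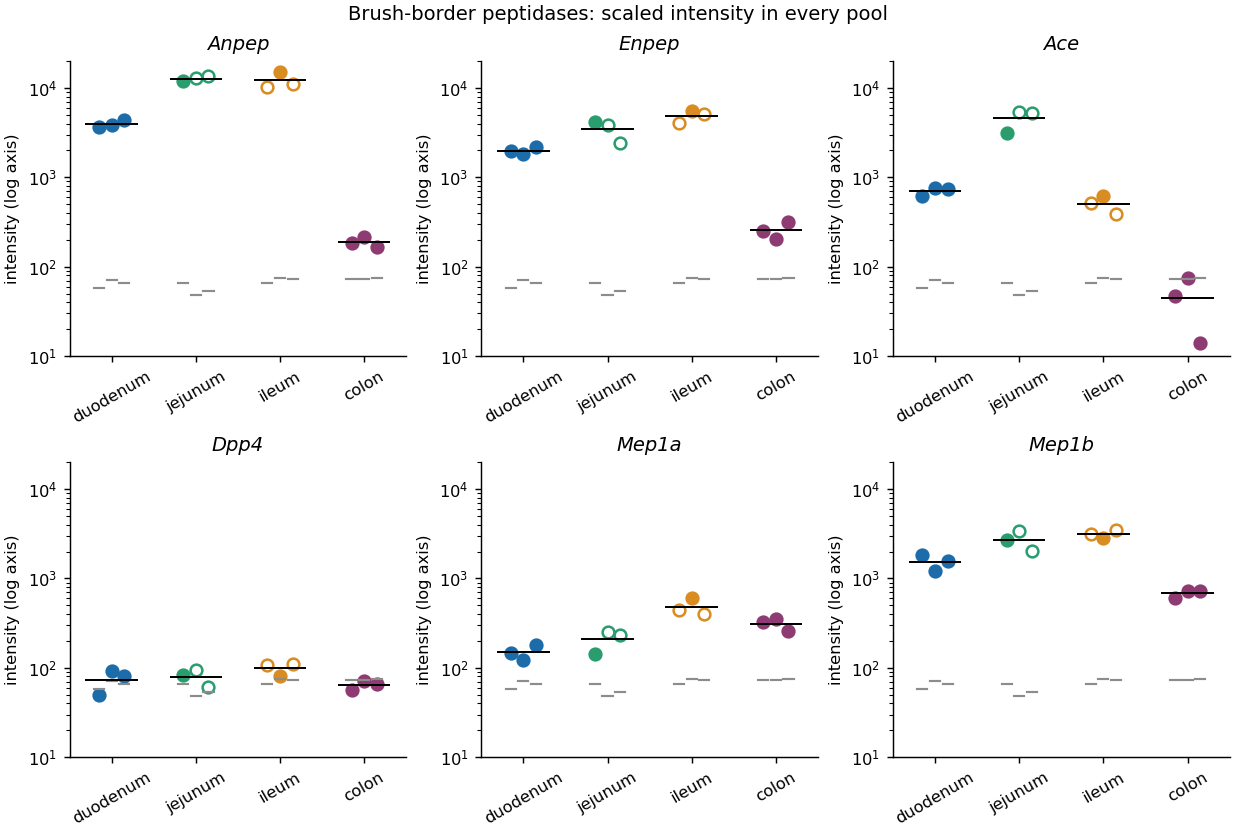
Scaled intensity (log axis) of the representing probe set of each measured gene in every pool. Points are pools 1 to 3 of a segment from left to right, open where the 18S control signal was low, black lines are segment means and grey ticks the median of that array. The colon points of Anpep, Enpep, Ace and Mep1b lie below all small-intestinal points, those of Mep1a lie between jejunum and ileum, and the Dpp4 points stay near the array medians.

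The letters just before the annotated transcription starts are shown for the 3 genes with the largest fall in the colon and for Mep1a. Mep1a was called lower in the colon in no comparison. The same holds for Dpp4, which passed no test and whose window is not shown. They are the 250 bases upstream of each start in RefSeq's table for build GRCm38.p6, 5′ to 3′ on the gene's own strand. Anpep lies at chr7:79848211-79848460 (minus strand), Enpep at chr3:129332750-129332999 (minus), the upstream Ace start at chr11:105967698-105967947 (plus), the internal Ace start at chr11:105974939-105975188 (plus) and Mep1a at chr17:43502774-43503023 (minus). The table held starts for 6 of the 7 genes, and which of them these tissues use was not measured. Capitals mark every match on either strand to 1 of 6 short motifs. TATAAA is the core of the TATA box that positions many starts. The Sp1 motif, common in housekeeping promoters, was searched as GGGCGG. For factors of gut epithelium, the HNF1 motif was searched as its half-site GTTAAT and the HNF4 motif as its half-site CAAAGT. The GATA family motif was searched with the letters AGATAA, and the motif of the CDX homeobox factors with the letters TTTATG.
Anpep: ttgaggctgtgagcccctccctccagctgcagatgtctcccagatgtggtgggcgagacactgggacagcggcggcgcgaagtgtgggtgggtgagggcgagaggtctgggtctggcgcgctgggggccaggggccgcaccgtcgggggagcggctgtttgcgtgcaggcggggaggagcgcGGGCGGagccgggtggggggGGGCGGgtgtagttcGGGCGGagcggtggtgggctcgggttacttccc
Enpep: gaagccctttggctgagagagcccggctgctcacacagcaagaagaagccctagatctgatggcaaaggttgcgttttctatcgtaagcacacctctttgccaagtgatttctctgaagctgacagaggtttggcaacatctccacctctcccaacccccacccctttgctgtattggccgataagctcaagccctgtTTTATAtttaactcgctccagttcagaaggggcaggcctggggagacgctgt
Ace, upstream start: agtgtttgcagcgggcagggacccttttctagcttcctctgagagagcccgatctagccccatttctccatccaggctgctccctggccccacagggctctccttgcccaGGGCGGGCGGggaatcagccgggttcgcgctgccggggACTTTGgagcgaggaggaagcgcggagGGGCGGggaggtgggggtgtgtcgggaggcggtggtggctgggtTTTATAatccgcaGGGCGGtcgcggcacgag
Ace, internal start: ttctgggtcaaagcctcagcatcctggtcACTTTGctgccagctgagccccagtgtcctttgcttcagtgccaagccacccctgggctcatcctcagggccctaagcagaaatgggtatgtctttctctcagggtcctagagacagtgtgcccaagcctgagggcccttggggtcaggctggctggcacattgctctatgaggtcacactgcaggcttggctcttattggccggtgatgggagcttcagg
Mep1a: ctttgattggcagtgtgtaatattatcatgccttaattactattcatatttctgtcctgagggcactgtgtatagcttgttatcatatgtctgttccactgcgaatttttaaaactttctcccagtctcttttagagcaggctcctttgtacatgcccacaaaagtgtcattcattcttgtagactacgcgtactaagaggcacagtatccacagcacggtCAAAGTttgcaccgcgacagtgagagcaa

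Of the windows shown, Anpep had the highest share of G or C, 72.8%, and its 3 capital blocks are all Sp1 motifs. The upstream Ace window had 67.2% G or C and 4 Sp1 motifs, of which 2 overlap, beside a TATA box on the opposite strand at 31 to 26 bases before the start and 1 HNF4 half-site on the opposite strand. The internal Ace start lies 7241 bases downstream of the upstream one, and its window held 1 HNF4 half-site, also on the opposite strand, and no Sp1 motif. Enpep, at 52.4% G or C, held a TATA box on the opposite strand at 52 to 47 bases before the start. Mep1a, at 41.6%, held an HNF4 half-site at 29 to 24 bases before the start. Among all 32851 windows of the table the median was 52.4% G or C, and the Sp1 motif was found in 32.7%, the HNF4 half-site in 12.6%, the TATA box in 12.4%, the CDX motif in 10.8%, the GATA motif in 9.99% and the HNF1 half-site in 6.43%. The HNF1, CDX and GATA letters did not occur in the 5 windows shown. The Dpp4 window, not shown, held a GATA motif at 32 to 27 bases before the start and a TATA box at 227 to 222. These are matches of letters, not measured sites.

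Anpep encodes aminopeptidase N, which takes neutral residues from the N-terminal end of peptides and is among the most abundant brush-border proteins. Its intensity (probe set 99993_at) was 3667.7, 3841.4 and 4414 in duodenum 1 to 3, 12023.2, 12816.4 and 13462.7 in jejunum 1 to 3, 10265.9, 15153.7 and 11202.8 in ileum 1 to 3, and 183.3, 217 and 166.5 in colon 1 to 3. The jejunal and ileal pools overlapped, the duodenal pools lay below both, and the colonic pools lay far below all of them, though still above the median of their arrays. The means were 3974 ± 390.5 in the duodenum, 12767 ± 721 in the jejunum, 12207 ± 2594 in the ileum and 189 ± 25.7 in the colon (SD, n = 3 pools).

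Anpep rose by 1.68 (SE 0.168) from duodenum to jejunum (limma, adjusted p = 4.59e-05) and was 1.60 higher in the ileum than in the duodenum (adjusted p = 3.87e-05). Jejunum and ileum differed by -0.08 with a 95% interval that began at -0.44 (adjusted p = 0.914). From ileum to colon Anpep fell by 5.89 (adjusted p = 6.69e-12), a 64.6-fold ratio of the means. Against the small-intestinal mean it fell by 5.38 (SE 0.137, adjusted p = 9.98e-13). Every called Anpep difference was also called in all alternatives tried.

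Enpep encodes aminopeptidase A, which removes acidic N-terminal residues and turns angiotensin II into angiotensin III. Its brightest probe set (102373_at) read 1949.5, 1838.9 and 2195.1 in duodenum 1 to 3, 4142.9, 3832.5 and 2430.3 in jejunum 1 to 3, 4023.1, 5476.8 and 5178 in ileum 1 to 3 and 254.1, 206.5 and 320 in colon 1 to 3. The duodenal pools lay below all jejunal and ileal ones, the jejunal and ileal pools overlapped, and the colonic pools lay lowest. Segment means were 1995 ± 182 in the duodenum, 3469 ± 912.5 in the jejunum, 4893 ± 768 in the ileum and 260 ± 57 in the colon (SD, n = 3).

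Enpep was 1.28 higher in the ileum than in the duodenum (limma, adjusted p = 0.00322), a call that was lost (0.85, adjusted p = 0.0924) when the arrays were shifted to an equal level of the epithelial genes. The steps between neighbouring small-intestinal segments, 0.76 (adjusted p = 0.127) and 0.52 (adjusted p = 0.266), did not pass. Jejunum 3 read lowest of the jejunal pools, and without it the step from duodenum to jejunum was 1.00 and passed (adjusted p = 0.0342). From ileum to colon Enpep fell by 4.16 (adjusted p = 6.31e-09) and differed from the small-intestinal mean by -3.56 (adjusted p = 1.56e-09).

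The other Enpep probe set, 161155_r_at, did not show this fall. It read 109.1 to 228.8 in the duodenum, 123.1 to 203.6 in the jejunum, 168.8 to 241.5 in the ileum and 210.3 to 306.4 in the colon, passed no contrast, and lay 0.58 higher in the colon than in the small intestine (limma, adjusted p = 0.179). Which stretch of the transcript each probe set reads is not given in the sources used here.

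Ace encodes angiotensin-converting enzyme, which removes dipeptides from the C-terminal end of peptides, among them angiotensin I. Its brightest probe set (160927_at) read 612.6, 755.2 and 742 in duodenum 1 to 3, 3166.5, 5446.5 and 5279.2 in jejunum 1 to 3, 519.9, 616.2 and 385 in ileum 1 to 3, and 47.2, 74.1 and 14 in colon 1 to 3. The jejunal pools stood above all others, the duodenal and ileal pools overlapped, and the colonic pools stood lowest, with 1 of 3 above the median of its array. The means were 703 ± 78.8 in the duodenum, 4631 ± 1271 in the jejunum, 507 ± 116 in the ileum and 45.1 ± 30.1 in the colon (SD, n = 3).

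Ace rose by 2.66 (SE 0.325) from duodenum to jejunum (limma, adjusted p = 0.000383) and fell by 3.13 from jejunum to ileum (adjusted p = 7.18e-05). Ileum and duodenum differed by -0.48 (adjusted p = 0.662). The colon lay lower than the ileum by -3.21 (adjusted p = 1.47e-05), than the duodenum by -3.69 (adjusted p = 2.22e-06) and than the jejunum by -6.35 (adjusted p = 3.6e-09). Jejunum 1, of the high 18S class, had the lowest jejunal Ace. When the fit allowed for the 18S class, the rise to the jejunum was 2.55 (adjusted p = 0.00922) and the step to the ileum -3.13 (adjusted p = 0.000141), and both calls held. Among the 8 samples of the high class, which leave 1 jejunal and 1 ileal pool, these values were 2.15 (adjusted p = 0.181) and -2.33 (adjusted p = 0.262).

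The Ace gene has a start for the somatic enzyme and an internal start for a shorter testis form, and its probe sets did not all show the same pattern. Probe set 161224_f_at read 105.3 to 208 in the duodenum, 367 to 826.4 in the jejunum, 98.6 to 254.2 in the ileum and 4.8 to 6.7 in the colon. It repeated the jejunal peak, with a rise of 1.94 from duodenum to jejunum (limma, adjusted p = 0.0169), a fall of 1.97 to the ileum (adjusted p = 0.00844) and a fall of 2.90 to the colon (adjusted p = 0.000141). Probe set 101428_at stayed at 3.9 to 33.2 in all 12 samples, under the array medians, and passed no test (F-test adjusted p = 0.572). The labels give no target stretch for these probe sets, so they cannot be assigned to a start here.

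**Figure D2:**
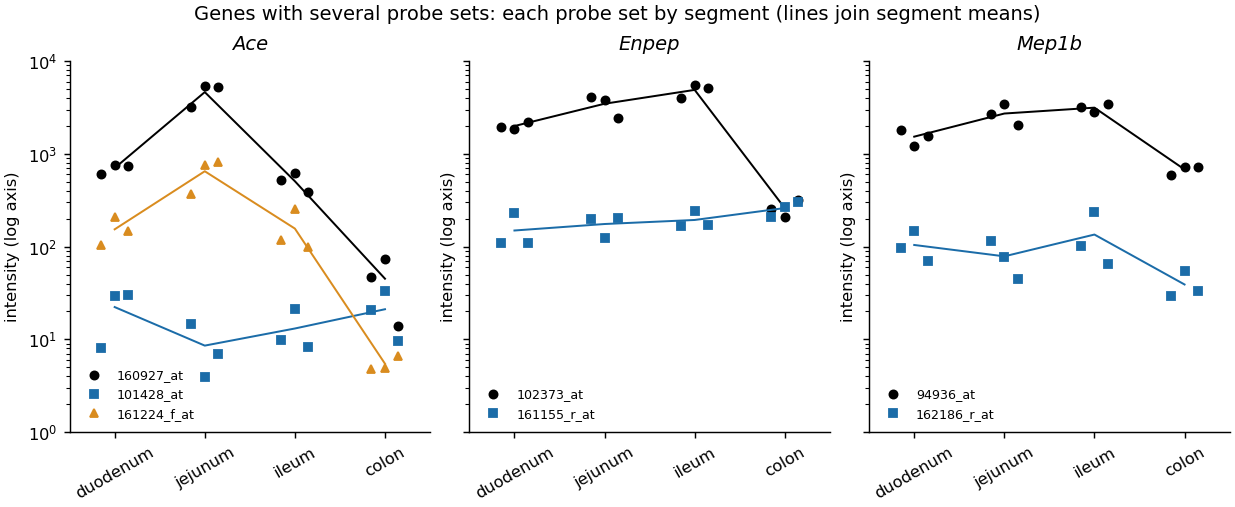
Intensity (log axis) of every probe set of Ace, Enpep and Mep1b by segment, with points for pools and lines through segment means. Ace 160927_at and 161224_f_at peak together in the jejunum while 101428_at stays at 33.2 or below, and Enpep 161155_r_at does not fall in the colon as 102373_at does.

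Dpp4 encodes dipeptidyl peptidase 4, which removes a dipeptide from N-terminal ends with proline or alanine next to the end and inactivates incretin hormones. Its single probe set (92634_at) read 49.8, 91.3 and 80.1 in duodenum 1 to 3, 82.5, 94.7 and 60.7 in jejunum 1 to 3, 106.9, 81 and 110 in ileum 1 to 3 and 55.8, 72 and 66.1 in colon 1 to 3. All 12 values lay close to the array medians of 48.6 to 75.3, with 2, 3, 3 and 0 of 3 pools above the median of their array in duodenum, jejunum, ileum and colon. The means were 73.7 ± 21.5, 79.3 ± 17.2, 99.3 ± 15.9 and 64.6 ± 8.2 in that order (SD, n = 3).

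No Dpp4 contrast passed, and neither did the limma F-test (adjusted p = 0.687). With a single probe set near the array medians, an even level and a probe set that reports the transcript poorly cannot be told apart. The largest, colon minus ileum, was -0.51 (adjusted p = 0.533) with a 95% interval from -1.12 to 0.10.

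Mep1a encodes the alpha subunit of meprin, a metalloendopeptidase that can be shed into the lumen, and was the only gene of the 6 that was called higher in the colon than in a small-intestinal segment. It read 145.2, 123.3 and 181.8 in duodenum 1 to 3, 144, 254.3 and 230.4 in jejunum 1 to 3, 440.1, 601.9 and 401.5 in ileum 1 to 3 and 327.9, 349.6 and 260.6 in colon 1 to 3 (probe set 100542_at). The duodenal and jejunal pools overlapped, all colonic pools lay above both, and all ileal pools lay above the colonic ones. The means were 150 ± 29.6 in the duodenum, 210 ± 58 in the jejunum, 481 ± 106 in the ileum and 313 ± 46.4 in the colon (SD, n = 3).

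Mep1a was 1.58 (SE 0.236) higher in the ileum than in the duodenum (limma, adjusted p = 0.00141), and this call held in all alternatives tried. It rose by 1.16 from jejunum to ileum (adjusted p = 0.0161) and was 0.99 higher in the colon than in the duodenum (adjusted p = 0.0194). Ileum and colon differed by -0.59 (adjusted p = 0.287), and the colon was 0.32 above the small-intestinal mean (adjusted p = 0.434). Both smaller calls depended on single samples and on scaling. The ileal rise was 0.88 with arrays centred on their median (adjusted p = 0.134) and 0.99 without ileum 2 (adjusted p = 0.0512), and it did not pass when only jejunum and ileum were fitted (adjusted p = 0.0753). The colonic excess over the duodenum was 0.58 at equal epithelial level (adjusted p = 0.175), 0.83 with median centring (adjusted p = 0.114) and 0.89 with quantile normalization (adjusted p = 0.0579), and it was lost without duodenum 1 (adjusted p = 0.0577), duodenum 2 (0.09), colon 1 (0.0785) or colon 2 (0.0909).

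Mep1b encodes the membrane-anchored beta subunit of meprin, to which the alpha subunit binds. Its brightest probe set (94936_at) read 1813, 1224.9 and 1558.9 in duodenum 1 to 3, 2721.5, 3415.6 and 2024.6 in jejunum 1 to 3, 3159.8, 2811.7 and 3470.5 in ileum 1 to 3 and 598.8, 715.1 and 723 in colon 1 to 3. The jejunal and ileal pools overlapped, the duodenal pools lay below both, and the colonic pools lay lowest but remained well above the array medians. The means were 1532 ± 295 in the duodenum, 2721 ± 695.5 in the jejunum, 3147 ± 330 in the ileum and 679 ± 69.5 in the colon (SD, n = 3).

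Mep1b fell by 2.19 from ileum to colon (limma, adjusted p = 3.79e-06), by 1.95 from jejunum to colon (adjusted p = 7.51e-06) and by 1.14 from duodenum to colon (adjusted p = 0.00163). It was 1.04 higher in the ileum than in the duodenum (adjusted p = 0.00922), which was lost at equal epithelial level (0.61, adjusted p = 0.16), with median centring (0.94, adjusted p = 0.0733), when the fit allowed for the 18S class (0.98, adjusted p = 0.066), among samples of high 18S signal (0.89, adjusted p = 0.125), without duodenum 2 (0.89, adjusted p = 0.0593) and without ileum 3 (0.97, adjusted p = 0.0593). The step from duodenum to jejunum, 0.81, did not pass (adjusted p = 0.0717) but did without jejunum 3 (1.00, adjusted p = 0.0277). The second probe set, 162186_r_at, read 29.5 to 54.1 in the colon and 44.8 to 238.5 in the small intestine and passed no test, with a colon difference of -1.05 (adjusted p = 0.0857).

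**Figure D3:**
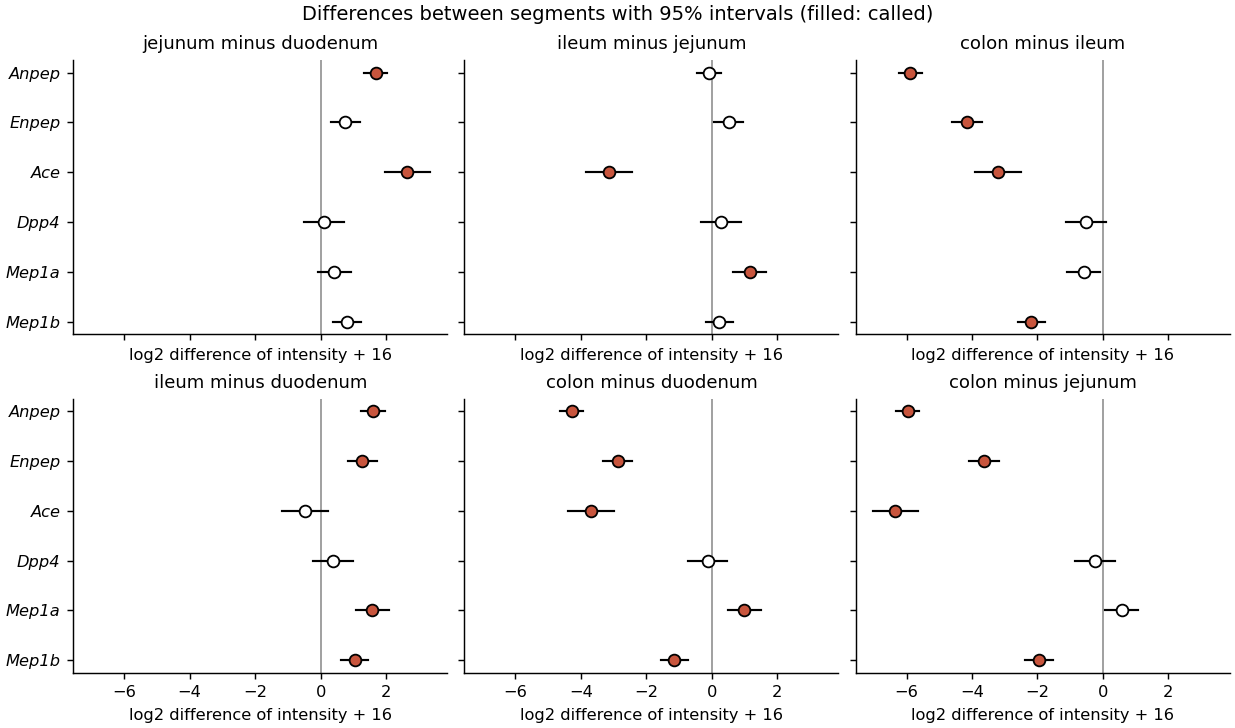
Log2 differences of intensity plus 16 between each pair of segments for the 6 genes, with 95% intervals (limma, 3 pools a segment). Filled points passed at an adjusted p below 0.05. Anpep, Enpep, Ace and Mep1b lie left of 0 in all 3 colon comparisons, and Mep1a lies right of 0 in colon minus duodenum.

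Pairs of genes were also compared inside each sample, where the scaling of an array cancels. The level of a ratio between different probe sets has no meaning, so only its change between segments is given, on the log2 scale, with a 2-sided exact permutation test over all 15400 divisions of the 12 samples into 4 groups of 3. The smallest p it allows is 6.49e-05, and 3 pairs were tested and adjusted together. The pairs were chosen after these same data were seen, so their p-values are not independent evidence of a difference. Each test covers the 4 segments at once, and the changes between single segments are descriptions. Mep1a relative to Mep1b differed over the 4 segments (exact permutation p = 0.00117, adjusted p = 0.00169). Its mean was 2.13 higher in the colon than in the duodenum and 1.60 higher than in the ileum. The 3 colonic ratios did not overlap those of any other segment. Anpep relative to Enpep differed over the 4 segments as well (exact permutation p = 6.49e-05, the smallest possible, adjusted p = 0.000195). Its mean was lower in the colon than in the ileum by -1.73, or by -6.29 with the dimmest Enpep probe set, and 0.92 higher in the jejunum than in the duodenum. So did Ace relative to Enpep (exact permutation p = 0.00169, adjusted p = 0.00169), with a mean lower in the ileum than in the jejunum by -3.65. With the dimmest probe sets of both genes, jejunum minus ileum was -0.10, and the exact permutation test over the 4 segments did not pass (adjusted p = 0.0844).

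**Figure D4:**
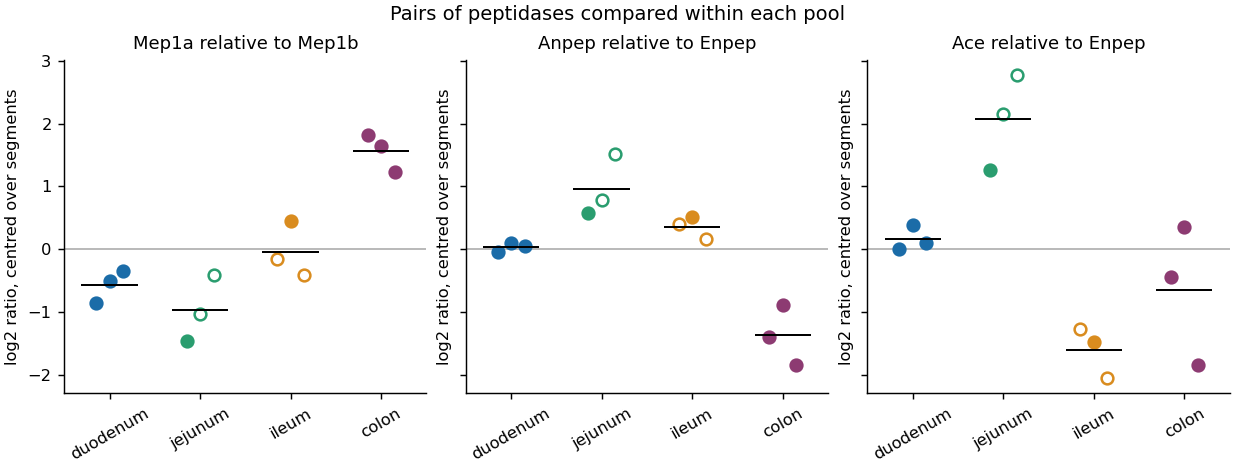
Log2 ratio of 2 genes within each sample, centred on the mean of the 4 segment means, so that only changes between segments can be read. Points are pools (open: low 18S class) and lines segment means. Mep1a relative to Mep1b is highest in the 3 colon pools, and Ace relative to Enpep is highest in the jejunum.

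Villin (Vil1), which bundles the actin core of microvilli, was taken as a reference gene for the brush border in each pool. Vil1 was itself lower in the colon than in the small intestine by -1.37 (limma, adjusted p = 1.67e-06). Measured relative to Vil1 in the same sample, the colon lay below the small-intestinal mean by -4.01 for Anpep, -3.05 for Ace and -2.19 for Enpep, and no colonic pool overlapped a small-intestinal one for these 3 genes. For Mep1b the difference shrank to -0.39 and the pools overlapped. For Mep1a the ratio to Vil1 was higher in the colon by 1.69, of which 0.32 was its own difference. These are descriptions without a test, and they depend on the reference gene. Pdzk1, also of brush-border structure, averaged 494 to 1155 in the small-intestinal segments and 8.9 in the colon. Krt20 averaged 7963 to 9451 and 7524. Ratios to these genes were not taken. Of the 9 measured genes of brush-border structure, 4 were lower in the colon (Vil1, Cdhr5, Pdzk1 and Slc9a3r1) and none higher, and their median was -0.72. Their summed intensity was 16097.2 to 19170 in the colon and 23859.8 to 34825.3 in the small intestine, while none of the 7 epithelial genes was called between colon and small intestine, though 3 were called higher with quantile normalization and 1 lower at equal epithelial level.

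Of 11 measured peptidases of the cell surface outside the 7 genes, 1 was lower in the colon than in the small intestine and none higher, and the list had a median of -0.25. That gene was Mme, neprilysin, an endopeptidase that cuts many peptide hormones, with means of 151 ± 31.0 in the duodenum, 239 ± 75.1 in the jejunum, 57.5 ± 39.5 in the ileum and 5.17 ± 1.96 in the colon (SD, n = 3) and a difference of -2.70 (limma, adjusted p = 0.000106). Like Ace it fell from jejunum to ileum (-1.96). Dpep1, a dipeptidase that splits the cysteinylglycine left over from glutathione, rose from 295.5 ± 47.5 in the duodenum through 748 ± 278 in the jejunum to 1312 ± 135.5 in the ileum and was 546.5 ± 18.4 in the colon. Its colon level was 0.86 above the duodenum, which was called here but not with median centring (limma, adjusted p = 0.244) or at equal epithelial level (adjusted p = 0.269).

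Among 18 cytosolic peptidases, 5 were lower in the colon than in the small intestine and 1 higher, with a list median of -0.16. Pepd, prolidase, which splits dipeptides ending in proline, fell most, from 613 ± 75.7, 1521 ± 254 and 1123 ± 306 in duodenum, jejunum and ileum to 121 ± 2.96 in the colon (SD, n = 3), a difference of -2.90 (limma, adjusted p = 6.96e-09). Cndp2, which splits many dipeptides, had means of 545 ± 132, 2201 ± 607, 2049 ± 180 and 355 ± 39.2 in the same order, and Xpnpep1, which removes a residue that precedes proline, 879 ± 93.2, 1810 ± 633, 2729 ± 178 and 443 ± 73.1. They were lower in the colon by -1.87 (adjusted p = 3.34e-06) and -1.83 (adjusted p = 7.19e-06). Lta4h, an aminopeptidase and leukotriene hydrolase, was lower by -0.99 (adjusted p = 0.000234). The 1 higher gene, Dpp8 (0.62, adjusted p = 0.0455), named after its value was seen, was not called under other scalings of the arrays.

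Among the carriers of amino acids and small peptides, 8 of 10 were lower in the colon than in the small intestine and none higher, and their median was -2.89. Slc6a19, the main brush-border carrier of neutral amino acids, averaged 6683 ± 271, 10548 ± 3604 and 7011 ± 1948 in duodenum, jejunum and ileum and 61.0 ± 36.9 in the colon (SD, n = 3), a difference of -6.78 (limma, adjusted p = 6.04e-11). Slc6a20a, which carries proline, differed by -6.20 (adjusted p = 7.01e-11), Slc7a9, the light subunit of the cystine and basic amino acid exchanger, by -3.49 (adjusted p = 2.32e-10) and Slc7a7, of the basolateral exchanger for basic amino acids, by -3.70 (adjusted p = 6.11e-10). Between duodenum and jejunum 5 of the 10 carriers rose and none fell, and between jejunum and ileum 1 rose and 4 fell. Slc7a9 lost its rise under each of the 3 other scalings, which left 4, and Slc7a7 lost its fall with quantile normalization, which left 3. The 6 peptidases had 2 rises and no fall and then 1 rise and 1 fall in these steps.

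**Figure D5:**
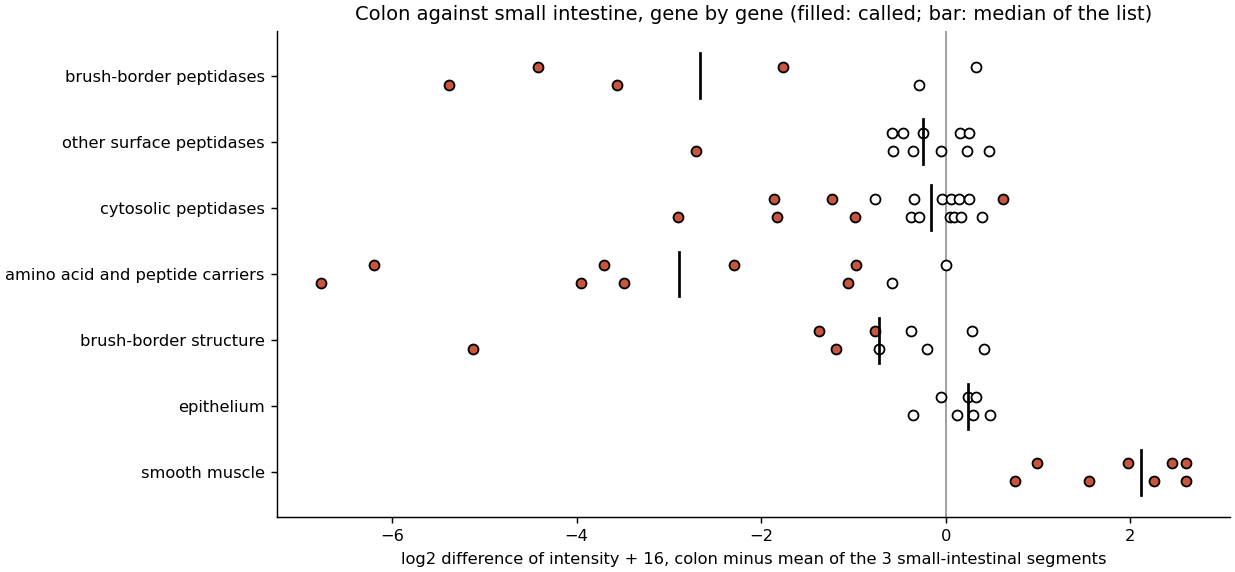
Log2 difference of intensity plus 16 between the colon and the mean of the 3 small-intestinal segments for each measured gene of 7 lists. Points are genes (filled: passed at an adjusted p below 0.05), staggered for legibility, and bars are list medians. Medians are -2.66 for the brush-border peptidases, -2.89 for the carriers, -0.25 and -0.16 for other surface and cytosolic peptidases and 2.12 for smooth muscle.

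Genes that share substrates with the peptidases did not move as one group. Of 6 measured renin-angiotensin genes, 2 were higher in the colon than in the small intestine and 1, Mme, lower. Agt, the angiotensinogen from which the Ace and Enpep substrates are cut, averaged 66.5 ± 46.6, 83.1 ± 45.9, 139 ± 5.35 and 262 ± 25.0 in duodenum, jejunum, ileum and colon (SD, n = 3) and was 1.44 higher in the colon (limma, adjusted p = 0.0081). Atp6ap2, the prorenin receptor, was 0.89 higher (adjusted p = 0.0364), a call that was lost under each of the 3 other scalings. The 4 peptide hormone genes whose products Dpp4 can cut divided: Gip fell from 956 ± 101, 915 ± 68.6 and 394 ± 92.1 to 20.1 ± 9.27 and Npy from 180 ± 35.3, 201 ± 51.9 and 125 ± 24.3 to 73.8 ± 13.7, while Pyy (1.96, adjusted p = 0.00999) and Gcg (1.14, adjusted p = 0.0222) were higher in the colon, though the call for Gcg was lost at equal epithelial level (1.01, adjusted p = 0.0791). Gcg was dim, with means of 18.6, 18.8, 55.7 and 79.9 in duodenum, jejunum, ileum and colon, where set A array medians were 48.6 to 75.3. Dpp4 itself passed no test in these samples.

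Ggt1, gamma-glutamyltransferase, which starts the breakdown of extracellular glutathione, was not measured here. Of the other genes of the glutathione cycle, all 8 had a probe set, and 1 was lower in the colon than in the small intestine and none higher. That gene was Lap3, a cytosolic leucine aminopeptidase (-1.23, adjusted p = 0.00721 in limma), which averaged 31.1 ± 11.7, 86.8 ± 30.1, 80.9 ± 9.17 and 16.4 ± 0.681 in duodenum, jejunum, ileum and colon (SD, n = 3). Lap3 was dim: its duodenal and colonic means lay under the set A array medians of 48.6 to 75.3. Gsr, glutathione reductase, had its lowest mean in the jejunum, with 1205.5 ± 97.6, 426 ± 84.8, 1746.5 ± 437 and 892 ± 168 in that order. It fell by 1.48 from duodenum to jejunum and rose by 1.98 from jejunum to ileum, and both steps were called.

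Transcription factors of gut epithelium were measured for 10 of 12 listed genes. In colon against small intestine 2 were higher and 3 lower. Gata5 fell most, from 158 ± 21.2, 283.5 ± 90.7 and 296 ± 35.0 in duodenum, jejunum and ileum to 9.77 ± 1.03 in the colon (SD, n = 3), a difference of -3.28 (limma, adjusted p = 3.75e-08). Gata4, a related factor of the upper gut, was lower by -1.53 (adjusted p = 0.00294), and Cdx1 and Klf4 were higher by 1.18 (adjusted p = 2.18e-05) and 1.47 (adjusted p = 1.76e-05).

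The genes with the most similar course were sought on array set A. The measure was the root mean square difference of the 4 segment means on the log2 scale, each centred on its own mean. Candidates were about 1688 probe sets with 1 gene symbol that passed the F-test and rose above the array set's median. Nearest to Anpep was Pdzk1 (0.27), a scaffold protein of the brush border, nearest to Enpep was Slc7a9 (0.14), followed by Mmp7 (0.21) and Gata5 (0.21), and nearest to Ace was Dnase1 (0.14), with means of 619, 3921, 571 and 25.7 in duodenum, jejunum, ileum and colon. Mep1b lay nearest to H2-DMa (0.10) and Oat (0.14), Mep1a to Pde9a (0.09) and Dpp4 to Mfge8 (0.10) and Ezr (0.10). Among the 6 peptidases the closest pair was Dpp4 and Mep1a (0.51), followed by Dpp4 and Mep1b (0.70) and Enpep and Mep1b (0.79), and the most distant was Ace and Mep1a (2.55). The distance is not scaled to the size of the changes, so Dpp4, which passed no test, lies near genes with small changes. Its small distances do not show a shared course: the centred colon mean was -0.22 for Dpp4 and 0.24 for Mep1a. These distances rest on 4 segment means of the same 12 samples and carry no test.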

How the data were processed

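The values analysed are intensity values that the authors deposited on a linear scale, already scaled to a common mean. The software used for this is not given in the sources used here. Of the deposited probe sets, 198 controls were set aside, and 29131 of the other 36701 carried 1 gene symbol in the annotation provided. The log2 of intensity plus 16 was fitted for each array set on its own over its 12 arrays by limma 3.58.1 (R 4.3.3), using a mean for each segment and a variance trend on intensity. Benjamini-Hochberg adjustment ran over the 3 sets together. The procedure was tested on simulated data. No replicate block was used in the main fit. Deviations from the segment means had a median correlation of 0.016 for pools with the same number (54 pairs over the 3 array sets, 14 above 0.1). For pools with other numbers it was -0.011 (108 pairs, 20 above 0.1). Array duodenum 3 of set C, which carries jejunum in its source name, was kept as duodenum by its title and holds none of the 10 probe sets.

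The members and lists were chosen with earlier results of these data known. All probe sets of the 7 genes are reported, a gene is represented by its brightest probe set on array set A, else B, else C, each list names up to 4 genes with the smallest F-test p, and each peptidase up to 3 genes nearest in course. The ratio tests and their alternatives were chosen after seeing the data. Array medians stand for depth, and the number of pools limits the precision. Alternatives covered the offset, scaling, filter, variance trend, samples in the fit, 18S class, probe set and adjustment.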

Additional observations from a re-analysis of the deposited data

How the results depend on the processing

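Of 1128 repeats of the 42 single-gene contrasts under the alternatives, 1077 kept direction and call. With the direction kept, 27 lost the call and 4 gained it, and 20 changed sign. The sign changes of Ace and Enpep with the dimmest probe set also lost a call, so more than 27 calls were lost. With a replicate block 42 of 42 kept both and no count of called genes changed, with Anpep in colon minus ileum at -5.89 there too. The choice of probe set moved most: with the dimmest one, 2 genes were called over all segments, 2 in colon minus duodenum, 2 in ileum minus duodenum and 1 in each of the other 5 comparisons. Signs then turned for Ace in colon minus ileum (0.33), colon minus jejunum (0.57), colon minus the small-intestinal mean (0.29), ileum minus jejunum (0.24) and jejunum minus duodenum (-0.60), for Enpep in colon minus duodenum (0.80), ileum (0.40), jejunum (0.55) and small-intestinal mean (0.58), for Mep1b in jejunum minus duodenum (-0.36), and for the jejunal excess over the ileum of Ace relative to Enpep (-0.10). In ileum minus jejunum, 1 gene, Ace, was called with median centring, where Mep1b turned to -0.0405 without a call, and with only the compared arrays. In the same comparison 0 were called (limma) among the 8 samples of high 18S signal, where Anpep was 0.33, Dpp4 -0.0221 and, in jejunum minus duodenum with 1 gene called, Mep1a -0.039. At equal epithelial level 2 genes were called in ileum minus duodenum, and Dpp4 was -0.0496 there and -0.30 in jejunum minus duodenum. Array set B holds no gene of the epithelial list and was left as deposited there. Leaving out 1 pool gave 1 to 2 genes in ileum minus jejunum (1 without ileum 2) and 2 to 4 in jejunum minus duodenum (4 without jejunum 3). Signs turned within those ranges for Anpep in ileum minus jejunum (-0.2497 without ileum 2 to 0.0308 without ileum 1) and for Dpp4 in colon minus duodenum (-0.3378 without duodenum 1 to 0.015 without duodenum 2) and jejunum minus duodenum (-0.1081 without duodenum 1 to 0.249 without jejunum 3). The cause was not tested.

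Scaling moved the median difference of all probe sets by over 0.1: with median centring from -0.06 to 0.07 in jejunum minus duodenum, from 0.06 to -0.11 in ileum minus jejunum, from 0.07 to -0.12 in colon minus jejunum and from 0.04 to -0.07 in colon minus the small-intestinal mean, and at equal epithelial level most in jejunum minus duodenum (-0.33) and ileum minus duodenum (-0.33). With median centring, calls in colon minus the small-intestinal mean changed from 1628 higher and 1150 lower to 1050 and 1381, in ileum minus jejunum from 591 and 429 to 202 and 551, in colon minus jejunum from 2131 and 1240 to 1164 and 1819, in colon minus duodenum from 1225 and 973 to 847 and 1070, and in jejunum minus duodenum from 126 and 213 to 115 and 128. At equal epithelial level they were 110 and 606 in jejunum minus duodenum, 185 and 814 in ileum minus duodenum and 729 and 1456 in colon minus duodenum. The 4 colonic falls were called under all 3 scalings. Without 1 pool, the calls over all probe sets went from 339 to 184 (without jejunum 3) up to 854 (without jejunum 1) in jejunum minus duodenum and from 1020 to 384 (without ileum 3) up to 1410 (without jejunum 1) in ileum minus jejunum. They moved by over 1.5 times from 339 without duodenum 2 (212) and 3 (217) too, from 1020 without jejunum 2 (657) and 3 (472) and ileum 1 (503), in ileum minus duodenum from 671 without ileum 3 (401), and in colon minus the small-intestinal mean from 2778 without colon 1 (1850) and 3 (1745). Among the 8 samples of high 18S signal, 97, 67, 383 and 1557 were called in jejunum minus duodenum, ileum minus jejunum, ileum minus duodenum and colon minus jejunum (3371 with all samples). When the fit allowed for the 18S class 208 were called in jejunum minus duodenum, and without an intensity trend 213 there and 664 in ileum minus jejunum. Dpp4 lay close to the array medians, colonic Ace was above its array's median in 1 of 3 pools, and Ace 101428_at lay under it in all samples.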
